A study of Mus musculus with 3 samples.

Results

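The neural basic helix-loop-helix (bHLH) transcription factor genes described here are 9 of the 22342 protein-coding genes of the mouse mm9 annotation (GENCODE vM1), and they were chosen by family name. They comprise the neurogenins Neurog1, Neurog2 and Neurog3, the NeuroD genes Neurod1, Neurod2, Neurod4 and Neurod6, and the oligodendrocyte lineage genes Olig1 and Olig2. Proteins of this class bind DNA as dimers, most often with a broadly expressed E protein as partner. Neurogenins commit progenitors to the neuronal fate, NeuroD proteins act later in neuronal differentiation, and Olig proteins act in progenitors that give rise to motor neurons and oligodendrocytes. In embryonic stem cells (ESCs) lineage regulators of this kind are typically silent, and many have bivalent promoters that carry H3K4me3 together with the Polycomb mark H3K27me3.

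The question put to these genes was where the histone variant H2A.Z and a mutant form of it lay at their loci, and how both lay relative to H3K27me3. ChIP-Seq was performed on mouse ESCs in 3 libraries, 1 per group and without replicates. The H2A.Z WT library came from KH2 ESCs with a doxycycline-inducible, YFP-tagged wild-type H2A.Z transgene driven by a CMV promoter, and the H2A.Z AP3 library from a matching line whose transgene had 3 residues of the acidic patch, a charged surface of the nucleosome, exchanged for those of H2A. Both lines also expressed a hairpin against the 3′ UTR of endogenous H2A.Z, both were sorted for YFP, and in both the tagged protein alone was pulled down, by a GFP antibody that does not see untagged H2A.Z. The H3K27me3 library was labelled as wild type in genotype. V6.5 is the labelled strain throughout, although KH2 cells are named in the treatment text, and for the H3K27me3 library it cannot be told apart which of these was used.

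The values were lists of enriched regions made of 25-bp bins, called on each library separately at a threshold of 1e-9, with a further list at 1e-12. At 1e-9 the H2A.Z WT list held 78359 regions over 28.3 Mb, the H2A.Z AP3 list 14599 over 3.5 Mb and the H3K27me3 list 16970 over 9.32 Mb. The lists give no reads or heights, so depth is unknown and a locus without a region may lie just under the threshold. With 1 library per group there was no replicate spread and no test, and each value below is set beside the same measure over all protein-coding genes as a description. Of 7 ESC marker genes, among them Pou5f1, Nanog and Sox2, H3K27me3 was called within 2 kb of a start at 1, Esrrb, over 2908 bp. That is 14.3%, against 17.8% of all protein-coding genes, so the count says little about the cell type. Region lists hold no expression, so the cell type was not checked.

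Most of these genes, like most protein-coding genes, carried wild-type H2A.Z within 2 kb of a start. Most of those among the 9 also carried H3K27me3, whereas the mutant was called at fewer of them and over short stretches. Within 2 kb of a transcript start, called the promoter here, H2A.Z WT was found at 7 of the 9 genes, against 60.9% of all protein-coding genes. With only the most upstream start counted, it was found at 6 of 9, against 58.9%. H3K27me3 was found at 6 of 9, against 17.8% of all genes. H2A.Z AP3 was found at 4 of 9, against 22.3% of all genes. The share for H3K27me3 stood furthest from that of all genes, while the shares for both H2A.Z lists were nearer to theirs.

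The genes fell into 4 combinations. All 3 lists had a promoter region at Neurog2, Neurod2, Olig1 and Olig2, a combination held by 7.48% of all genes. Neurog1 and Neurog3 had H2A.Z WT and H3K27me3 without the mutant, so that 6 of 9 genes had both, as 16.9% of all genes did. Neurod1 had H2A.Z WT alone, and Neurod4 and Neurod6 had none of the 3, as did 37.0% of all genes. At 1e-12 H2A.Z WT was present at 7 promoters (59.2% of all genes), H2A.Z AP3 at 3 (18.1%) and H3K27me3 at 6 (15.5%). Olig2 lost its H2A.Z AP3 region there, and in the H3K27me3 list Olig1 dropped out while Neurod1 came in.

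Taken over the gene with 10 kb of flank on each side, H2A.Z WT regions were present at 9 of 9 genes (75.1% of all genes), H2A.Z AP3 at 7 (39.2%) and H3K27me3 at 7 (24.9%). These stretches held 34 H2A.Z WT regions, 9 H2A.Z AP3 regions and 55 H3K27me3 regions. H2A.Z WT covered 16800 bp of them in all, H2A.Z AP3 1375 bp and H3K27me3 55711 bp. H3K27me3 thus had the largest sum, of which Neurod2 and Neurog1 gave 18462 and 14499 bp, while H2A.Z WT covered more than H3K27me3 at Neurod1, Neurod4, Neurod6 and Olig1.

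The H2A.Z AP3 regions were few enough to be given one by one, and the sequence under them shows where the mutant was called. All 9 lay at least partly in an H2A.Z WT region (100.0%, 95% Wilson interval 70.1 to 100.0, which covers counting error within this list only), against 73.0% of H2A.Z AP3 regions genome-wide. Neurog2 had 2, of 75 bp in its 5′ UTR from 22 to 96 bp past the start and of 150 bp over coding sequence from 1197 to 1346 bp past it. Neurod2 had 1 of 275 bp over coding sequence, 1587 to 1861 bp past the start, and Olig1 had 1 of 150 bp over coding sequence, 437 to 586 bp past the start. Coding exons thus held the region, or the longer region, at these 3 genes.

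At the other loci the mutant lay outside the named gene itself. Neurog3 and Neurod1 had single 25-bp bins, 3762 and 2667 bp upstream of the start at their far edges. Olig2 had a 25-bp bin 1994 bp upstream and a 150-bp region from 7231 to 7380 bp past the start. Neurod6 had the longest, 500 bp, beginning 3932 bp past the start of a gene of 3446 bp. Neurog1 and Neurod4 had none, and their nearest H2A.Z AP3 regions lay 43502 and 262105 bp from the start.

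The middle 25-bp bin of these regions, except the 5′ UTR region of Neurog2, was compared for CpG content. It is read 5′ to 3′ on the strand of the gene from the mm9 genome, with each CpG dinucleotide in capitals.
Neurog2 coding exon, chr3:127337301-127337325, plus strand: tcctccaactccaCGtccccataca
Neurod2 coding exon, chr11:98189226-98189250, minus strand: gcatgcaCGacctgaaCGCGgctct
Olig1 coding exon, chr16:91270501-91270525, plus strand: CGcactgccagggCGCGcCGggcCG
Neurod6 downstream, chr6:55627051-55627075, minus strand: CGtggtctccagaactcCGgctgCG
Neurod1 upstream, chr2:79299551-79299575, minus strand: ggaCGctgcaggccatgacccagct
Olig2 upstream, chr16:91223801-91223825, plus strand: atattgtacCGcctgaggtttgtta
Olig2 downstream, chr16:91233076-91233100, plus strand: ctcacagagagattgcttagaaagc
Neurog3 upstream, chr10:61592076-61592100, plus strand: agatgaaatatggggttggtgagcc

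The bin of Olig1 held 5 CpGs, those of Neurod2 and Neurod6 held 3 each, and those of Neurog3 and the downstream region of Olig2 held 0. Over whole regions, the median was 5.2 CpGs per 100 bp in the H2A.Z AP3 regions of these genes, against 2.67 over all H2A.Z AP3 regions. In their H2A.Z WT regions it was 4.81, against 2.67 over all H2A.Z WT regions, and in their H3K27me3 regions 2.18, against 2. Both H2A.Z lists thus lay over sequence with more CpGs at these genes than their genome-wide medians, and H3K27me3 differed little from its own. Those medians are over all regions wherever they lie, and no reference matched for distance from a start was made. The H2A.Z AP3 median rests on 9 regions. Some are single 25-bp bins, in which 1 CpG counts as 4 per 100 bp.

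**Figure D1:**
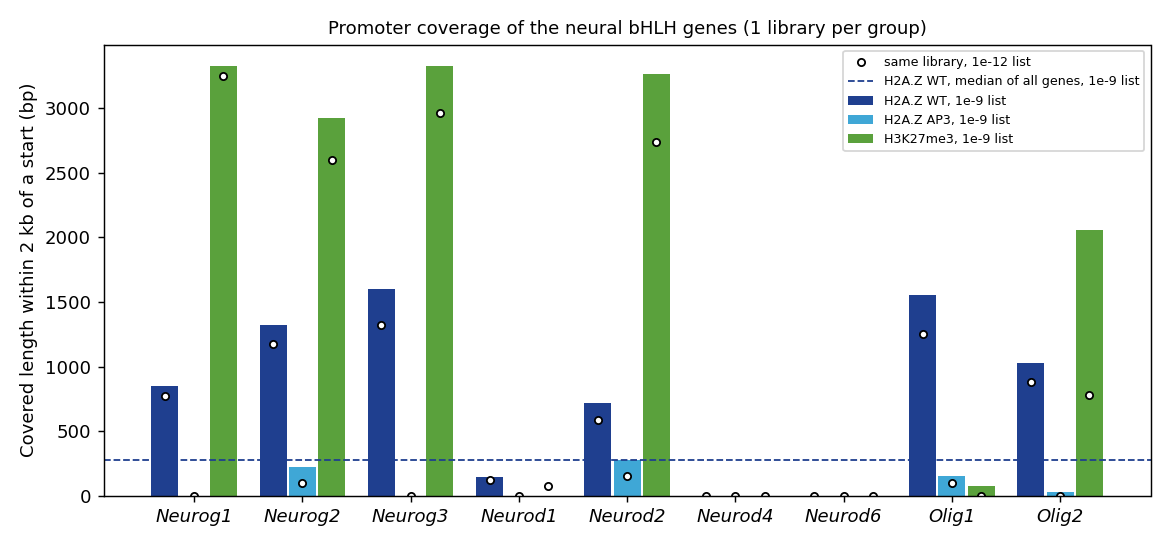
Base pairs within 2 kb of a start that each list covered, by gene, as bars for the 1e-9 lists and circles for the 1e-12 lists. The dashed line is the median H2A.Z WT coverage of all protein-coding genes, 275 bp, and the bars of Neurog3 and Olig1 reach 1600 and 1550 bp while Neurod4 and Neurod6 are at 0.

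Neurog1 (chr13:56351866-56353524, minus strand) encodes a neurogenin of cranial sensory ganglia and the inner ear. H2A.Z WT covered 850 bp of its promoter, H2A.Z AP3 0 bp and H3K27me3 3326 bp. The H2A.Z WT bases lay in a single region from 51 bp upstream of the start to 798 bp past it, which covered 77.6% of the coding sequence. H3K27me3 called nearly the same interval, from 51 bp upstream to 923 bp past the start, and was interrupted on either side of it. Counting the flank, H3K27me3 covered 14499 bp, or 66.9% of the stretch, a coverage in bp that 0.363% of all genes reached. Neurog1 was the gene with the most CpGs of the 9, with 89 in the 1 kb around its start, and was also without any H2A.Z AP3 region in its stretch. The lincRNA 4930550C17Rik starts in its downstream flank.

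Neurog2 (chr3:127336054-127338549, plus strand) encodes the main neurogenin of the cortical progenitors. Its promoter was covered over 1325 bp by H2A.Z WT, 225 bp by H2A.Z AP3 and 2922 bp by H3K27me3. H2A.Z WT formed a 500-bp region at the start and an 825-bp region that held 74.1% of the coding sequence, and each of them overlapped an H2A.Z AP3 region and an H3K27me3 region. At 1e-12 the H2A.Z AP3 coverage was 100 bp, all of it in the coding exon.

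Neurog3 (chr10:61595838-61597511, plus strand) encodes the factor that starts the endocrine lineage of the pancreas. It had the most H2A.Z WT at its promoter of the 9 genes, 1600 bp, a coverage reached by 5.74% of all genes, together with 3326 bp of H3K27me3. H2A.Z AP3 covered 0 bp there. A single H2A.Z WT region ran from 137 bp upstream to 1462 bp past the start and covered 100.0% of the coding sequence, as did H3K27me3. Neurog3 lies inside the gene 2010107G23Rik, which is on the opposite strand and has several starts, so regions at Neurog3 lie in that gene too. Within 2 kb of the starts of 2010107G23Rik, H2A.Z WT covered 2550 bp, H2A.Z AP3 400 bp and H3K27me3 2250 bp. Which of these genes the regions at Neurog3 belong to cannot be told apart.

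Neurod1 (chr2:79292678-79296908, minus strand) encodes a factor of differentiating neurons and endocrine cells. Its H2A.Z WT lay as 825 bp from 2992 to 2168 bp upstream and 775 bp from 2033 to 2807 bp past the most upstream start, leaving the start itself bare. The promoter value of 143 bp came from the second region through the more downstream of its 2 annotated starts. That region covered 70.2% of the coding sequence. H3K27me3 had no region at 1e-9 in the gene and flank, with the nearest 200208 bp from the start, and 75 bp in the intron at 1e-12. Neurod1 overlaps the same-strand gene Cerkl and the antisense lincRNA Gm17325, so regions within it lie in those genes too. The annotated start of Gm17325, at chr2:79294142, lies inside the H2A.Z WT region over the Neurod1 coding sequence. The upstream H2A.Z WT region and the H2A.Z AP3 bin also lie within Gm17325. To which of these genes the regions belong cannot be told apart.

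Neurod2 (chr11:98186729-98190962, minus strand) encodes a factor of maturing cortical neurons. H2A.Z WT covered 714 bp of its promoter, H2A.Z AP3 275 bp, the most of the 9 genes, and H3K27me3 3264 bp. The main H2A.Z WT region, of 1125 bp from 1362 bp past the start, covered 95.6% of the coding sequence and held the H2A.Z AP3 region within it. H3K27me3 covered 18462 bp of the gene and flank, or 76.2%, and 0.175% of all genes had as many bp. At this gene the start was covered by H3K27me3 and by neither H2A.Z list. Within 2 kb of it both H2A.Z lists were called mainly at the coding exon. H3K27me3 lay there too, over 84.8% of the coding sequence.

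Neurod4 (chr10:129705209-129717296, minus strand) and Neurod6 (chr6:55627812-55631257, minus strand), a neurogenic factor of retina and midbrain and a factor of cortical projection neurons, had 0 bp of the 3 lists at their promoters. Neurod4 had a 50-bp H2A.Z WT region 16821 bp past the start and no other region in the gene and flank at 1e-9, and none at 1e-12. Neurod6 had 950 bp of H2A.Z WT and 500 bp of H2A.Z AP3 downstream of the gene, with 25 bp of H3K27me3 beyond them. The Neurod6 region lies on chromosome 6, where 60.9% of the genes with promoter H2A.Z WT also had H2A.Z AP3, against 29.9% to 35% on the other chromosomes that hold these 9 genes, and its part in the value for Neurod6 was not tested. Without chromosome 6, H2A.Z AP3 covered 875 bp of the genes and flanks in place of 1375 bp.

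Olig1 (chr16:91270014-91272184, plus strand) and Olig2 (chr16:91225795-91228922, plus strand), which encode factors of the oligodendrocyte lineage, Olig2 also of motor neuron progenitors, are neighbours with starts 44219 bp apart and differed in H3K27me3. At the promoter Olig1 had 1550 bp of H2A.Z WT, 150 bp of H2A.Z AP3 and 75 bp of H3K27me3. Olig2 had 1031 bp of H2A.Z WT, 25 bp of H2A.Z AP3 and 2056 bp of H3K27me3. In the genes with flank, H3K27me3 formed 14 regions over 7700 bp at Olig2 and 2 regions over 125 bp at Olig1, while each had 5 H2A.Z WT regions. At 1e-12 H3K27me3 was 5125 bp at Olig2 and 0 bp at Olig1. The 21091 bp between the flanks held 0 regions of any of the 3 lists, so the stretches of the pair were separate.

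Olig2 differed from the others in where its H2A.Z WT lay, with 43.6% of the bases within 2 kb of the start on the downstream side, against 89.5% to 99.8% at the other 5 genes with a region within 2 kb of the most upstream start. It was also the 1 gene of the 9 with the letters TATAAA in the 50 bases before the start on the transcribed strand, as in 3.09% of all genes. Only these exact letters were sought. Neurog2 has the similar letters tatataag in the 30 bases before its start, and there H2A.Z WT and H3K27me3 covered the start. Other stretches rich in A and T open these 30 bases at Neurog3 (ataaag), Olig1 (tttaaagg) and Neurod6 (taaaagg). H2A.Z WT covered the starts of Neurog3 and Olig1 but not that of Neurod6. The starts of Neurod1, Neurod4 and Neurod6, without TATAAA, were also covered by none of the 3 lists. A link between such letters and coverage of the start was not tested. The 30 bases before the start of Olig2 are printed to show the letters TATAAA, in capitals, at a start that none of the 3 lists covered.
Olig2 upstream of the start, chr16:91225765-91225794, plus strand: gtcgctgctgcctccacccagcTATAAAaa
The nearest H2A.Z WT region ended 220 bp upstream of the start and the nearest H3K27me3 region began 131 bp past it.

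Near the starts of the 9 genes, wild-type H2A.Z lay mostly on the downstream side. Within 2 kb of the most upstream start, H2A.Z WT covered 960 bp upstream and 6106 bp downstream, so that 86.4% was downstream, against 65% over all genes. For H2A.Z AP3 25 bp were upstream and 650 bp downstream (96.3%, against 56.5% over all genes), and for H3K27me3 50.4% of the bases were downstream (61.8%). The start itself was covered by H2A.Z WT at Neurog1, Neurog2, Neurog3 and Olig1, and 25.9% of all genes had a covered start. H3K27me3 covered the start at Neurog1, Neurog2, Neurog3 and Neurod2, against 3.09% of all genes. H2A.Z AP3 covered 0 of the 9 starts, against 2.54% of all genes.

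H2A.Z WT touched coding sequence at 7 of 9 genes (45.2% of all genes), H2A.Z AP3 at 3 (11.0%) and H3K27me3 at 5 (9.43%). Of the 8133 bp of coding sequence of the 9 genes, H2A.Z WT covered 59.6%, against 11.6% of the coding sequence of all genes. These genes are short, with coding sequence close to the start, and the comparison was therefore repeated for coding bases within 2 kb of a start. There H2A.Z WT covered 69.4% of the coding bases of the 9 genes and 20.9% of those of all genes. H3K27me3 covered 53% and 6.62%, and H2A.Z AP3 10.5% and 2.88%. For H2A.Z WT the ratio to all genes was thus smaller near the start than over the whole coding sequence, though still above 1. The order of the 3 lists was the same by both measures, in the 9 genes and in all genes alike.

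Coverage by the mutant was small beside that of the wild type. Summed over the 9 promoters, H2A.Z AP3 covered 675 bp and H2A.Z WT 7213 bp, or 9.36%, against 14.6% over all genes. At 1e-12 the sums were 350 and 6113 bp, or 5.73%, against 11.8%. The 2 lists differ in size genome-wide and their depths are unknown, so these are ratios of called length and not of bound protein. On chromosomes 6 and 8, 60.9% and 61.2% of the genes with promoter H2A.Z WT also had H2A.Z AP3. On the other chromosomes 14.2% to 36% did, and those of the 9 genes with promoter H2A.Z WT all lie there. The part of chromosomes 6 and 8 in the all-gene and genome-wide H2A.Z AP3 values given here was not tested. The median promoter coverage of the 9 genes by H2A.Z WT was 850.0 bp, against 275 bp over all genes. The median by H3K27me3 was 2056 bp, against 0, and the median by H2A.Z AP3 was 0 in both.

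The H2A.Z WT regions that overlapped the mutant, 9 of 34 (26.5%, against 12.9% of H2A.Z WT regions genome-wide), were long ones. The 9 with an H2A.Z AP3 region had a median length of 925 bp, from 500 to 1575 bp, and the 25 without had a median of 200.0 bp, from 50 to 1600 bp. The longest of the 34, the region of 1600 bp at Neurog3, lacked the mutant. A long region also has more bases to be overlapped, and how far length accounts for the difference was not tested.

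**Figure D2:**
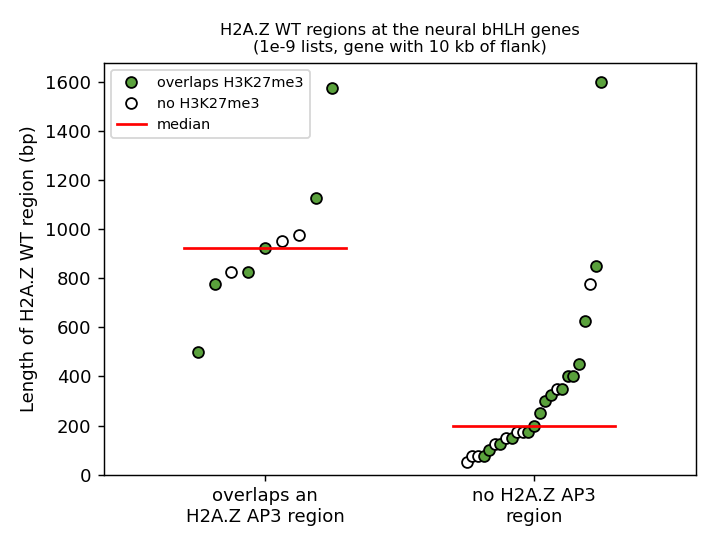
Length in bp of each of the 34 H2A.Z WT regions at the 9 genes and their flanks, split by overlap with an H2A.Z AP3 region and coloured green where an H3K27me3 region also overlapped, with red lines at the medians. The 9 regions with the mutant are 500 bp or longer, and most of the 25 without it are shorter.

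H3K27me3 overlapped 22 of the 34 H2A.Z WT regions (64.7%, 95% Wilson interval 47.9 to 78.5), against 8.08% of H2A.Z WT regions genome-wide. The interval treats the regions as independent, although they come from 9 loci and several share an H3K27me3 domain, so it is too narrow. H3K27me3 was present at 6 of the 9 H2A.Z WT regions that had the mutant and at 16 of the 25 that did not. The 3 with the mutant and without H3K27me3 lay upstream of Neurod1, downstream of Neurod6 and at the start of Olig1. With regions within 1 kb counted as shared, 29 of 34 (85.3%) had H3K27me3.

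H3K27me3 formed broad domains at 5 of the genes once gaps of 1 kb or less were closed. The domain of Neurod2 was 28575 bp long (chr11:98175026-98203600) and ranked 7 of 8348 by length in the genome. It contained 8 H2A.Z WT regions with 2275 bp and a single H2A.Z AP3 region of 275 bp. The domain of Neurog1 was 18000 bp long (rank 43), with 3 H2A.Z WT regions of 1500 bp in all and no H2A.Z AP3. Those of Neurog2, Olig2 and Neurog3 measured 9025, 7975 and 7025 bp, at ranks 179, 219 and 269, and held 1625, 2425 and 2625 bp of H2A.Z WT in the same order. The one of Olig1 was 75 bp, at rank 6766. The longest domain, that of Neurod2, was thus not the one with the most H2A.Z WT, which was that of Neurog3.

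The genes without promoter H2A.Z were those with the fewest CpGs of the 9. Neurod4 and Neurod6 had 11 and 9 CpG dinucleotides within 500 bp of the start, against a median of 41 over all genes. Of all genes with 0 to 10 CpGs there, 12.6% had promoter H2A.Z WT, and of those with 11 to 26, 50.4% did. The other 7 genes had 40 (Neurod2) to 89 (Neurog1) and the 3 classes of genes from 27 CpGs upward had promoter H2A.Z WT in 81.1% to 81.7%. Among these 7 the order by CpG was not the order by coverage. Neurog3 had 43 CpGs and the most H2A.Z WT, while Neurod1 with 49 had the least. Olig1 with 74 CpGs had less H3K27me3 than Neurod2 with 40.

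**Figure D3:**
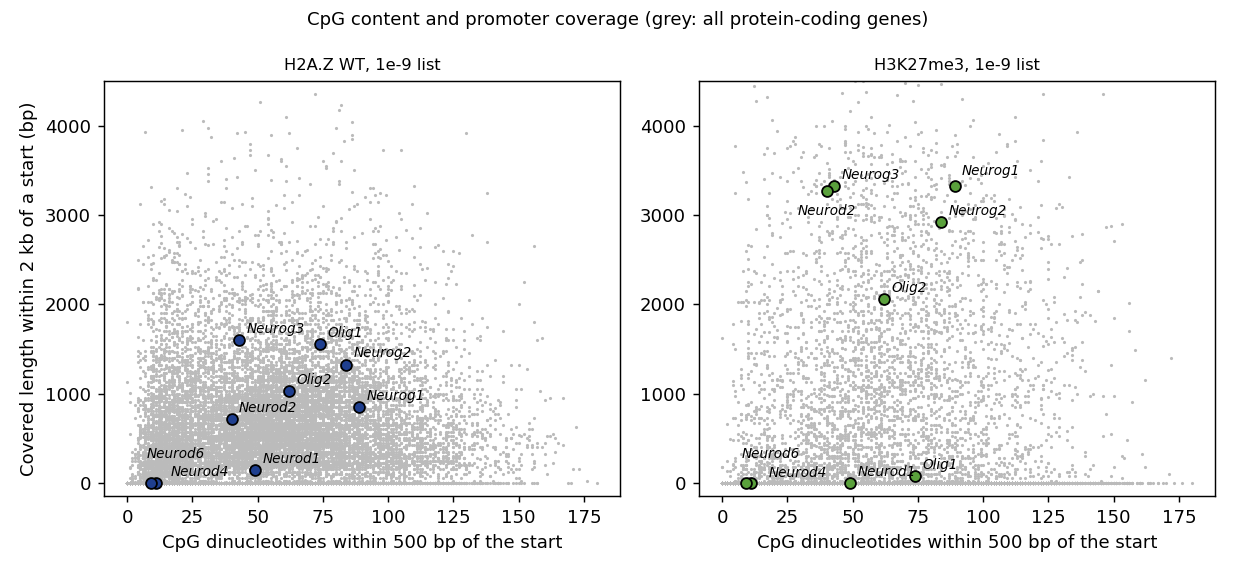
Promoter coverage in bp against the number of CpG dinucleotides within 500 bp of the most upstream start, for H2A.Z WT (left) and H3K27me3 (right), with all protein-coding genes in grey and the 9 genes named. The vertical axis ends at 4500 bp, which leaves 23 genes of the left panel and 65 of the right above it. Neurod4 and Neurod6 sit at the low end of CpG content with 0 bp, and the other 7 are spread over the range of covered lengths.

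The promoter pattern of Neurog3, the gene with the most H2A.Z WT, was compared with that of genes at other loci by the Jaccard index, the shared called 25-bp bins over the bins called in either gene, over the 3 libraries together. The nearest were Zbtb16, a zinc finger repressor (0.818), Rax, an eye field homeobox factor (0.79), and Crhr1, a receptor for corticotropin-releasing hormone (0.783). Zbtb16 had 1475 bp of H2A.Z WT, 25 bp of H2A.Z AP3 and 3076 bp of H3K27me3 at its promoter. Among the 9 genes the most alike were Neurog1 and Neurog3 (0.662), then Neurog2 and Neurog3 (0.607) and Neurog1 and Neurod2 (0.509). Olig1 and Olig2 reached 0.0773 in spite of their shared neighbourhood.

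Other genes of the same regulatory circuit were counted on lists by function. Of 10 other neural bHLH genes, among them Atoh1 and Ptf1a, H2A.Z WT was present at 9 promoters, H2A.Z AP3 at 6 and H3K27me3 at 8, with median H2A.Z WT coverage of 1050 bp beside 850.0 bp in the 9 genes. Bhlhe23, a repressor of this class, had the most H2A.Z WT on that list (2550 bp), and Olig3, a dorsal progenitor factor related to Olig1 and Olig2, the most H2A.Z AP3 (975 bp). Olig3 had 1025 bp of H2A.Z WT, close to the 1031 bp of Olig2, which had 25 bp of H2A.Z AP3. The E proteins, the partners of these factors, had H2A.Z WT at 2 of 3 promoters, H3K27me3 at 1 and H2A.Z AP3 at 0, and Tcf12 had the most H2A.Z WT (1050 bp) with 100 bp of H3K27me3.

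The Hes, Hey and Id genes encode antagonists of proneural bHLH proteins, and of these 10 genes 8 had H2A.Z WT, 3 H2A.Z AP3 and 8 H3K27me3 at the promoter. Hes5, an effector of Notch signalling, had the most H2A.Z WT of them (2250 bp) and Id4 the most H2A.Z AP3 (375 bp). Of 9 Notch ligands and receptors, which restrain neurogenin expression between neighbouring cells, 9 had H2A.Z WT, 3 H2A.Z AP3 and 4 H3K27me3. Notch1 had the most H2A.Z WT (2574 bp) with 0 bp of H3K27me3, and the ligand gene Dll1 the most H2A.Z AP3 (350 bp).

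Genes that act in the differentiated cells, downstream of these factors, were counted in the same way. Among 8 neuronal effector genes H2A.Z WT was present at 7, H2A.Z AP3 at 2 and H3K27me3 at 4, with Rbfox3, a neuronal splicing factor, highest in H2A.Z WT (3925 bp) and Tubb3, a neuronal tubulin, in H2A.Z AP3 (250 bp). Among 6 oligodendrocyte effector genes these numbers were 3, 2 and 1, and Mbp, which encodes a myelin protein, was highest in both H2A.Z lists (2800 and 600 bp). Tubb3 lies on chromosome 8, where 61.2% of the genes with promoter H2A.Z WT also had H2A.Z AP3. Genes of the other neural bHLH list, among them Atoh1, lie on chromosome 6, where 60.9% did. The part of these chromosomes in the H2A.Z AP3 values of the lists was not tested. These lists are small and the differences between them were not tested.

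**Figure D4:**
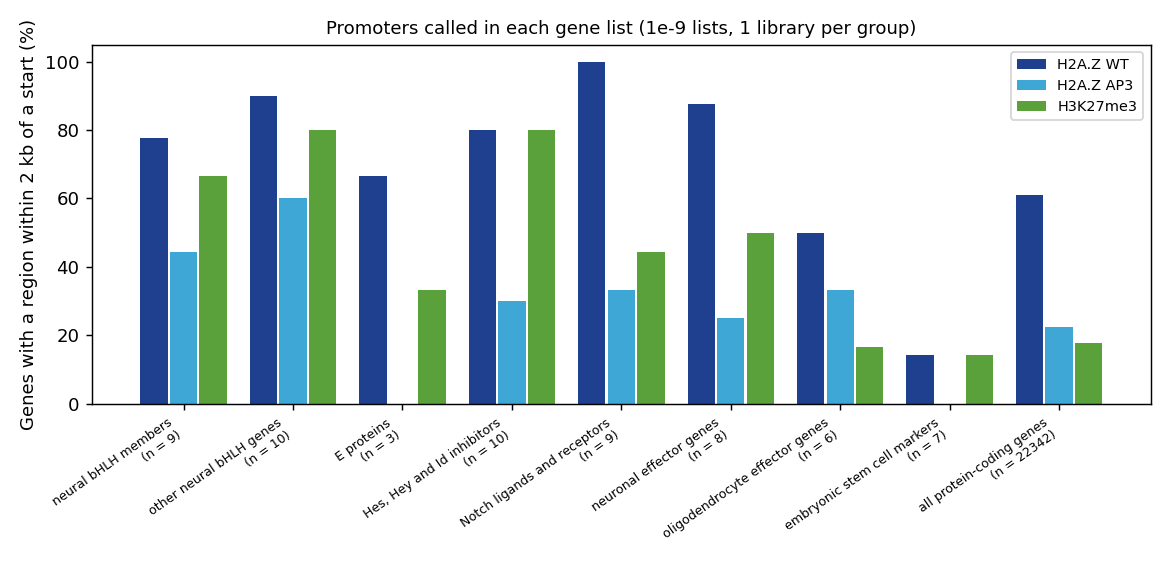
Percent of the genes of each list with a region within 2 kb of a start, by library at 1e-9 (colours in the key), with the number of genes under each list. H3K27me3 reaches 66.7% of the 9 genes and 80.0% of the other neural bHLH genes, against 17.8% of all protein-coding genes.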

How the data were processed

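The 3 ChIP-Seq libraries were grouped by the genotype and antibody labels. The authors aligned reads to mm9 with Bowtie (0.12.3, up to 2 mismatches), extended them to 200 bp, allocated them to 25-bp bins and called bins by a Poisson model with at least 5-fold enrichment over input, each library on its own. The deposited values are coordinates of regions. They carry no count, height or score, so depth is unknown. The methods state the 1e-9 threshold, which was used for the main values. Labels and methods name different suppliers for the H3K27me3 antibody.

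Covered base pairs were counted within 2 kb of the starts of protein-coding transcripts (45993 starts) and in genes with 10 kb of flank, using GENCODE vM1. Overlap meant at least 1 bp. Coordinates are 1-based on mm9. The text names the 9 genes, the gene of each list with the most H2A.Z WT and the most H2A.Z AP3, genes with a start in a flank, and the 3 genes nearest to Neurog3 by the Jaccard index. The genes, lists and the examples Atoh1, Ptf1a and ESC markers were chosen with earlier results of these data known. A gene of the other neural bHLH list is not reported here. Map2 was matched through a synonym. Alternatives covered the threshold, joined or longer regions, window, starts and overlap criterion. Counting was tested on simulated data. Python 3.11.15 and NumPy 2.4.6 were used.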

Additional observations from a re-analysis of the deposited data

Results flagged for a closer look

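Regions of the 1e-12 list that had no counterpart in the 1e-9 list of the same library were looked at because a stricter threshold should only shorten a list. Neurod1 had such an H3K27me3 region of 75 bp in its intron, 1483 to 1557 bp past the start. Neurod2 had an H2A.Z WT region of 325 bp from 4663 to 4339 bp upstream and an H2A.Z AP3 region of 125 bp from 4413 to 4289 bp upstream, which overlapped each other and an H3K27me3 region of the 1e-12 list. At the 9 genes the 1e-12 list of H2A.Z WT held 27 regions, that of the mutant 6 and that of H3K27me3 60, and 1 of each was of this kind. Genome-wide the shares were 8.05%, 23.4% and 3.24% in the same order, and the cause was not tested.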

How the results depend on the processing

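The 18 results were recomputed under up to 13 settings, and 129 values stayed close to the main ones and 14 moved. Counts and lengths were called close within a fixed ratio, and shares of regions inside the Wilson interval of the main share. The limit is wide. A fall from 7 to 5 genes with H2A.Z AP3 in gene and flank, at 1e-12, was called close. Promoters of 1 kb each side gave 4187 bp of H2A.Z WT, 225 bp of H2A.Z AP3, 7422 bp of H3K27me3, 2 genes with H2A.Z AP3 and an H2A.Z AP3 length of 5.37% of H2A.Z WT. Promoters of 5 kb each side gave 12738, 1225 and 32453 bp and 7 genes with H2A.Z AP3. At 1e-12 H2A.Z AP3 covered 350 bp of promoters, 5.73% of H2A.Z WT, and 750 bp of genes and flanks. Counting regions within 1 kb as shared gave H3K27me3 at 29 (85.3%) of 34 H2A.Z WT regions. The widths follow from the windows, and the cause of the other changes was not tested. Leaving out chromosome 6, which gave 875 bp of H2A.Z AP3 in genes and flanks because Neurod6 lies there, and the union of both thresholds were chosen after seeing the data. No paired analysis was possible because each group had 1 library and no test was run. The small H2A.Z AP3 values at these genes rest on a few 25-bp bins, and without read counts a gene under the threshold could not be told apart from one without H2A.Z.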
